A study of Rattus norvegicus with 18 samples.

Results

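DNA repair and damage signalling genes were examined in the lungs of rats given a multiwalled carbon nanotube (MWCNT). A list of 41 gene symbols defined the set, and a gene was a member when its name in the deposited gene tables equalled one of these symbols. The tables held 22081 genes, and 40 of the 41 symbols were found. The symbol not found was *Chek1*, the checkpoint kinase downstream of ATR. The members belonged to 8 groups, namely homologous recombination (12 genes), the Fanconi anemia pathway (5), damage signalling kinases (3), base excision and single-strand break repair (11), mismatch repair (2), nucleotide excision repair (4), translesion synthesis (1), and non-homologous end joining (2).

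The animals were 18 male F344/DuCrlCrlj rats, and each rat gave 1 RNA-seq library. From 9 weeks of age, one arm was given MWNT-7 by intratracheal instillation, at a dose of 0.5 mg/kg every 4 weeks (MWCNT-treated rats), and the other was given vehicle on the same schedule (control rats). Lungs were taken after 0.5, 1, or 2 years (Year 0.5, Year 1, Year 2) from 3 rats of each arm, which makes 6 groups. The RNA came from pieces of the accessory lobe without tumors, so every value is a mean over the cell types of that tissue. In such bulk RNA, a change in the number of cells that express a gene and a change in RNA per cell cannot be told apart. Libraries of the 9 control rats held 13297643 to 17868851 counts, and those of the 9 MWCNT-treated rats 14661589 to 21130757.

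DNA repair is divided by the kind of lesion. Base excision repair removes small oxidized, deaminated, or alkylated bases, nucleotide excision repair removes bulky lesions, and mismatch repair corrects errors of replication. Double-strand breaks are sealed directly by non-homologous end joining or copied from the sister chromatid by homologous recombination, which works in S and G2 phase and shares factors with the Fanconi anemia pathway of interstrand crosslink repair. The kinases ATM and ATR detect breaks and stalled forks and signal to the checkpoint kinases. Many genes of homologous recombination and the Fanconi anemia pathway are transcribed mainly in cycling cells, whereas most excision repair genes are expressed in resting cells too.

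Transcription of genes of the cell cycle is commonly tied to 3 kinds of promoter element, and 5 member promoters are shown here because they differ in these letters and in the response described further on. The sequences are the 250 bases before the annotated start, from RefSeq on the GRCr8 assembly of the rat, printed 5′ to 3′ on the strand of the gene. Capitals mark E2F letters (TTTCCCGC, TTTCGCGC, TTTGCCGC, or TTTGGCGC), CHR letters (TTTGAA), and the CCAAT box, each searched on both strands, so that a match on the other strand appears as its reverse complement.
Bard1: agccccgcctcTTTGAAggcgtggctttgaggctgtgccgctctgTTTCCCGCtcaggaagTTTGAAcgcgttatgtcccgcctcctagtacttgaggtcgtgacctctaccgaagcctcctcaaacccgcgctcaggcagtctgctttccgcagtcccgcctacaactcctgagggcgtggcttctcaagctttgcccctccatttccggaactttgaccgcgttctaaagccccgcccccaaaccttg
Exo1: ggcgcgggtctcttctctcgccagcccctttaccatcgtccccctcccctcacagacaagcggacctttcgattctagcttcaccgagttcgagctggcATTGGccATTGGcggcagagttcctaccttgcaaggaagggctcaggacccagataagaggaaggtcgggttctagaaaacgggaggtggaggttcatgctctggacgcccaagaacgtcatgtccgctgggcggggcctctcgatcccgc
Ung: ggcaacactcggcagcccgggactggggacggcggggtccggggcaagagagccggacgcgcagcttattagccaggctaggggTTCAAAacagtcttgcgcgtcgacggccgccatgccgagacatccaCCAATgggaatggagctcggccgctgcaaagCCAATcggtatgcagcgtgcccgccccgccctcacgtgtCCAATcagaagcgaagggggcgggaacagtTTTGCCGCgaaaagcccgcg
Nthl1: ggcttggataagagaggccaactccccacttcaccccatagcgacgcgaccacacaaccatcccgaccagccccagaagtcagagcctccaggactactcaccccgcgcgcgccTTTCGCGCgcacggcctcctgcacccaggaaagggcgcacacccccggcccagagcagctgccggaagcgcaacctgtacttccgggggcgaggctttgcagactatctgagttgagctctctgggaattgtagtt
Parp1: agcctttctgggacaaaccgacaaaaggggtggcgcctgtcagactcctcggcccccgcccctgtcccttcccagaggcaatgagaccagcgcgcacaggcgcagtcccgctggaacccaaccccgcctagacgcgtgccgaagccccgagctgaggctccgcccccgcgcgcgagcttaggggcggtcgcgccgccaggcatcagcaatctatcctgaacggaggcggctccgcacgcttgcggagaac

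The stretch of *Bard1* lies at chr9:80143756-80144005 on the minus strand, that of *Exo1* at chr13:90341768-90342017 on the plus strand, and that of *Ung* at chr12:48154046-48154295 on the minus strand. The *Nthl1* stretch lies at chr10:14160084-14160333 on the plus strand and the *Parp1* stretch at chr13:94839234-94839483 on the plus strand. *Bard1* held 1 E2F match, beginning 205 bases before the start, and CHR letters 239 and 189 bases before it. *Exo1* held CCAAT boxes on the other strand 151 and 144 bases before the start. *Ung* held E2F letters 20 bases before the start together with 3 CCAAT boxes and 1 CHR match. *Nthl1* held E2F letters 136 bases before the start, and *Parp1* held none of the 3 kinds.

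RefSeq promoter entries were matched by symbol for 33 of the 40 members, and the search window there was 250 bases before to 50 bases after the start. E2F letters were found in 7 members (*Bard1*, *Fancd2*, *Atm*, *Nthl1*, *Ung*, *Lig1*, and *Msh6*), against 2.14% of all 33469 promoters. CHR letters were found in 6 members (*Bard1*, *Rad51c*, *Fanci*, *Xrcc1*, *Ung*, and *Xpc*) against 18.3% of all promoters. The CCAAT box was found in 16 members, against 37.5% of all promoters. The E2F matches belonged to members of 5 of the 8 groups and to genes that responded differently. A match is a description of the letters and not a site shown to be bound.

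Levels differed widely between the groups of genes. Per transcript length, the mean over the 9 control rats was highest for *Xrcc1*, the scaffold of single-strand break repair, at 63.6 ± 4.40 TPM, the authors' measure per transcript length (mean ± SD). *Ercc1*, a subunit of the nuclease that cuts beside bulky lesions, followed at 39.8 ± 4.08 TPM, and *Parp1* stood at 38.6 ± 4.17 TPM. These neighbours in the order, *Ercc1* and *Parp1*, differed by less than their SDs. Members of homologous recombination ranged from 0.397 to 3.03 TPM, and those of the Fanconi anemia pathway from 0.849 to 3.66 TPM. Base excision and single-strand break repair spanned 0.0999 TPM (*Neil3*) to 63.6 TPM, nucleotide excision repair 8.43 to 39.8 TPM, and mismatch repair 13.5 to 16.6 TPM. The 12 genes of homologous recombination summed to 16.5 ± 0.164 TPM in the control rats at Year 0.5, and the 11 genes of base excision and single-strand break repair to 236 ± 5.52 TPM. Reads per rat, which also depend on transcript length, ran from 0 to 14 for *Rmi2* and from 98 to 292 for *Brca2*.

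MWCNT-treated rats were compared with control rats at each time point, which asks whether repeated exposure was accompanied by other levels of repair transcripts. A gene was called higher ("rose") or lower ("fell") at a false discovery rate (FDR) below 0.05 in edgeR's quasi-likelihood test, adjusted over all genes tested at that time point. A differentially expressed gene (DEG) had, in addition, an absolute log2 fold change above 1. Of the 40 members, 37 passed the filter on low counts and were tested at all 3 time points, and *Xrcc3*, *Rmi2*, and *Neil3* did not.

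At Year 0.5, 15 members rose and 2 fell (*Parp2* and *Pms2*) among the 37 tested, and 38.8% of all 14315 genes tested were called, 20.2% higher and 18.6% lower. The median log2 fold change of the members was 0.30, against -0.021 over all genes. The 5 DEGs were *Bard1*, *Exo1*, *Fanca*, *Fancd2*, and *Fanci*, and 9.1% of all genes were DEGs. With library size alone as the scaling, 12 members were higher and 3 lower, and the limma test on TPM gave 10 higher and 5 lower. Without MWCNT-treated replicate 2, the members called numbered 9 and the DEGs 3, and without control replicate 1 the members called numbered 11.

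At Year 1, 11 members rose in edgeR's test, while 41.2% of all 14345 genes were called, 21.6% higher and 19.6% lower. No member was called lower, although 1, *Nthl1*, was lower at an unadjusted p below 0.05 and called lower in DESeq2 and in 5 alternative edgeR fits. The median log2 fold change was 0.21 for the members and 0.00053 for all genes. The DEGs were *Bard1* and *Exo1*, against 10.2% of all genes. Scaling by library size gave 8 higher and 3 lower, and the limma test on TPM gave 4 higher and 3 lower. The members called fell to 6 without control replicate 2 and to 7 without control replicate 3 or MWCNT-treated replicate 1. The DEG count was 1 without MWCNT-treated replicate 1, 4 without MWCNT-treated replicate 3, and 5 without control replicate 1.

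At Year 2, 14 members rose and 1 fell (*Xrcc1*), and 49.2% of all 14361 genes were called, 25.2% higher and 24% lower. The members' median log2 fold change was 0.29, and that of all genes was -0.011. The DEGs were *Exo1*, *Chek2*, and *Parp1*, against 16.4% of all genes. The split depended on the scaling, being 6 higher and 6 lower with library size alone and 6 higher and 5 lower in the limma test on TPM. The members called numbered 9 without MWCNT-treated replicate 2.

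The number of members called was thus not far from that given by the share over all genes, and it was the direction that differed, since calls over all genes were nearly balanced with TMM scaling. The median log2 fold change of all genes was -0.125, -0.134, and -0.182 at the 3 times with library size scaling, against -0.021, 0.00053, and -0.011 with TMM, and the share of higher genes among all calls went from 52.1% to 35.1%, from 52.3% to 33.2%, and from 51.2% to 31.7%. Higher at all 3 time points were 6 members (*Brca1*, *Brca2*, *Exo1*, *Parp1*, *Apex1*, and *Lig1*), against 14.8% of all genes tested at the 3 times, and no member was lower at all 3, against 12.2%. In total, 18 members were higher at least once, 3 were lower at least once, and 16 were never called. The share of all genes called at least once was not computed, so these counts are not read as a result about the members. Every MWCNT-treated rat lay above every control rat for 18 of the 37 members at Year 0.5, 14 at Year 1, and 17 at Year 2. Over all genes tested, these shares were 26.2%, 28%, and 30.9%.

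**Figure D1:**
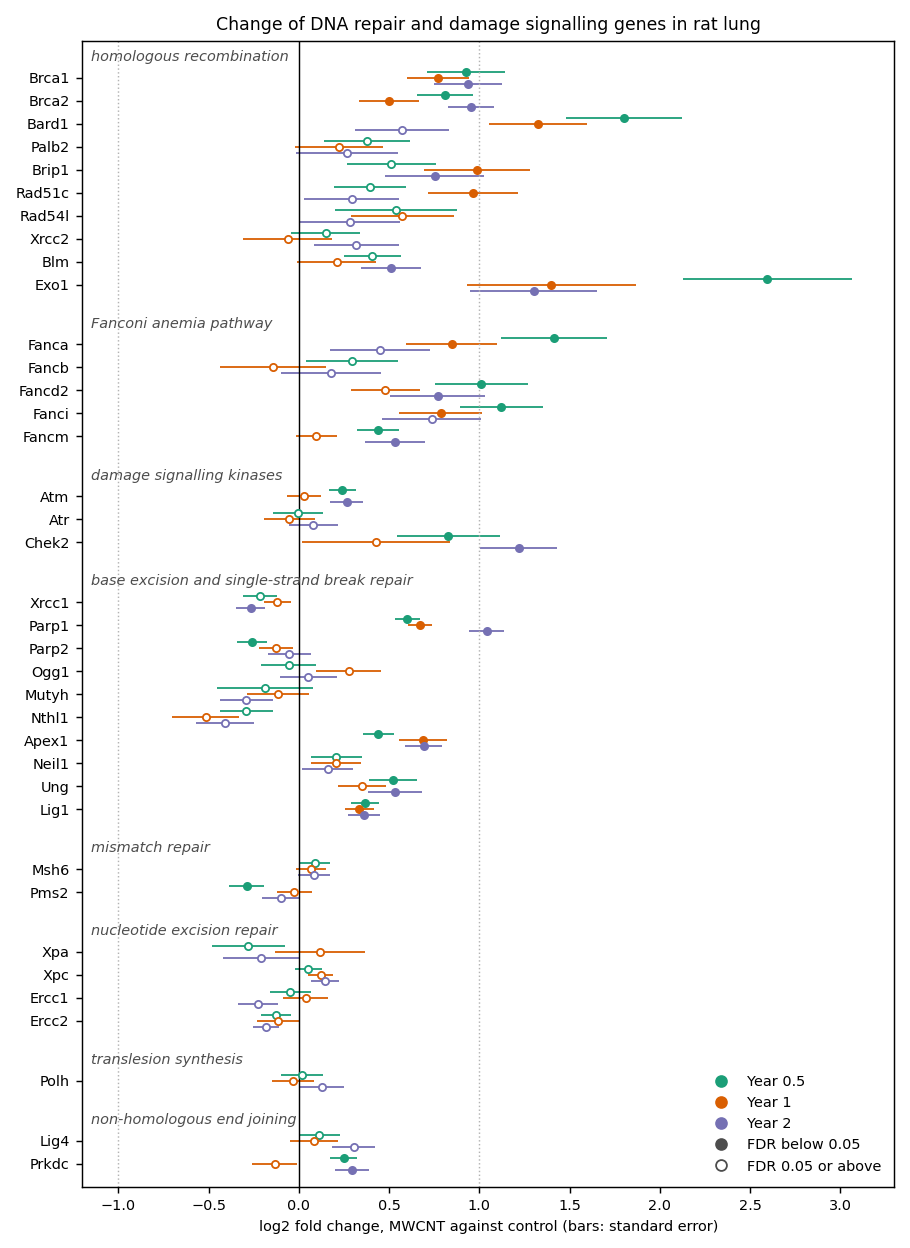
Log2 fold change, MWCNT against control, of the 37 members tested, in rows grouped by pathway, with the earliest to the latest time in green, orange, and purple. Bars are standard errors of the fit (3 rats against 3) and filled points have an FDR below 0.05. Filled points lie to the right of 0 for recombination and Fanconi genes, and those to the left are *Parp2* and *Pms2* at Year 0.5 and *Xrcc1* at Year 2.

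Homologous recombination held the member with the largest log2 fold change at each time, *Exo1*. Beside 20.2%, 21.6%, and 25.2% of all genes tested, 4 of its 10 tested members rose at Year 0.5, 6 at Year 1, and 5 at Year 2. DESeq2 called 4, 5, and 3 of them higher, and a positive log2 fold change was measured for 10, 9, and 10. The median log2 fold change of these 10 was 0.53, 0.67, and 0.54 at the 3 times. Levels within a gene are given below in CPM, the counts scaled to a common library total with TMM factors over the 18 rats, for replicates 1, 2, and 3.

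*Brca1*, which directs broken ends into recombination, was higher in MWCNT-treated rats throughout. *Brca1* at Year 0.5 measured 4.08, 3.03, and 4.43 CPM in controls and 6.42, 8.88, and 6.64 CPM after MWCNT. The Year 1 levels were 3.32, 4.24, and 3.80 CPM in controls against 6.94, 6.10, and 6.29 CPM after MWCNT. Year 2 values were 3.51, 4.90, and 4.69 CPM for controls and 8.85, 7.41, and 8.96 CPM for MWCNT-treated rats. The groups did not overlap at any of the 3 times. Fitted *Brca1* log2 fold changes were 0.93 ± 0.21, 0.77 ± 0.17, and 0.94 ± 0.19 (SE), in order of time, and their FDRs 0.00909, 0.00699, and 0.00303. *Brca2*, a mediator of strand exchange, likewise rose at each time. For *Brca2*, the Year 0.5 controls were at 7.06, 7.89, and 6.38 CPM and the exposed rats at 11.2, 14.5, and 11.6 CPM. Year 1 controls had 9.61, 7.28, and 7.22 CPM, compared with 13.2, 10.7, and 9.93 CPM in exposed rats. By Year 2, controls reached 9.15, 8.14, and 7.83 CPM and MWCNT-treated rats 15.3, 16.2, and 17.4 CPM. Again no control rat reached the lowest MWCNT-treated rat. In edgeR, the *Brca2* log2 fold changes came to 0.81 ± 0.16, 0.50 ± 0.17, and 0.95 ± 0.13 (SE), at FDRs of 0.00357, 0.0405, and 0.000253. The *Brca2* call at Year 1 was lost without control replicate 2 or 3 or MWCNT-treated replicate 1 or 2, with FDRs of 0.0634 to 0.138, and under scaling by library size (0.106).

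*Bard1* (ENSRNOG00000014960, chr9:78294834-78369031 on Rnor_6.0) encodes the partner of BRCA1 in its ubiquitin ligase, and its promoter is the first one shown. Control rats had 0.816, 1.06, and 0.781 CPM of *Bard1* at Year 0.5, and MWCNT-treated rats had 2.74, 4.12, and 2.34 CPM. By Year 1, it was 1.27, 1.14, and 1.02 CPM in controls and 2.91, 2.34, and 3.31 CPM with MWCNT. Lungs of Year 2 showed 2.34, 2.93, and 1.96 CPM without MWCNT and 2.95, 3.80, and 4.04 CPM with it. All MWCNT-treated rats were above all control rats at each time, and the control rats of Year 2 were above those of Year 0.5 and Year 1. On the log2 scale, *Bard1* differed by 1.80 ± 0.32, 1.33 ± 0.27, and 0.57 ± 0.26 (SE) from Year 0.5 to Year 2, with FDRs of 0.0024, 0.0045, and 0.0978. The fold change was 3.49 at Year 0.5 and 1.49 at Year 2, and the last was not called.

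*Exo1* (ENSRNOG00000056209, chr13:93939022-93960342) encodes an exonuclease of end resection and mismatch repair. *Exo1* at Year 0.5 measured 0.233, 0.0704, and 0.391 CPM in controls and 1.60, 1.29, and 1.5 CPM after MWCNT. At Year 1, controls stood at 0.495, 0.633, and 0.321 CPM and MWCNT-treated rats at 1.19, 1.85, and 0.728 CPM. Values at Year 2 were 1.10, 0.572, and 0.769 CPM without and 2.06, 2.24, and 1.75 CPM with MWCNT. The groups were separate at all 3 times, with the closest rats, 0.633 and 0.728 CPM, at Year 1. *Exo1* had log2 fold changes of 2.60 ± 0.47, 1.40 ± 0.47, and 1.30 ± 0.35 (SE) at the 3 times, with FDRs of 0.00259, 0.0394, and 0.0134. These values rested on few reads, which at Year 0.5 numbered 4, 1, and 6 without MWCNT and 24, 26, and 23 with it. The *Exo1* call at Year 1 was lost in DESeq2 and without any 1 rat other than MWCNT-treated replicate 3 (FDRs of 0.0629 to 0.160), and the call at Year 2 without control replicate 2 (0.0551).

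*Brip1*, a helicase bound by BRCA1, is the last recombination gene called at more than 1 time. For *Brip1*, the Year 0.5 controls were at 2.04, 1.76, and 2.08 CPM and the exposed rats at 2.47, 3.42, and 2.47 CPM. The Year 1 levels were 1.77, 1.52, and 1.02 CPM in controls against 3.37, 2.59, and 2.45 CPM after MWCNT. Year 2 values were 1.58, 1.97, and 1.89 CPM for controls and 2.65, 2.74, and 3.84 CPM for MWCNT-treated rats. MWCNT-treated rats were above the control rats at each time, by a margin that was smallest at Year 0.5. Fitted *Brip1* log2 fold changes were 0.51 ± 0.25, 0.98 ± 0.29, and 0.75 ± 0.28 (SE), in order of time, and their FDRs 0.136, 0.0255, and 0.047. Leaving out any 1 of the 6 rats ended the *Brip1* call at Year 2 (FDRs of 0.0647 to 0.176), as did DESeq2, and the Year 1 call was lost without control replicate 2 or 3 or MWCNT-treated replicate 1 (0.0608 to 0.0945). *Rad51c*, a factor of strand exchange, was called at Year 1 alone, where the control rats had 2.47, 1.90, and 1.98 CPM and the MWCNT-treated rats 4.69, 4.56, and 3.04 CPM. The *Rad51c* log2 fold change at Year 1 was 0.96 ± 0.25 (SE, FDR = 0.0141). That call was lost without control replicate 2 or 3, with FDRs of 0.0548 to 0.0563. *Blm*, the helicase altered in Bloom syndrome, was called at Year 2 alone, with 6.60, 5.41, and 6.92 CPM against 8.04, 9.09, and 9.90 CPM. The *Blm* log2 fold change at Year 2 was 0.51 ± 0.17 (SE, FDR = 0.0294). Without control replicate 2 or MWCNT-treated replicate 2 or 3, the FDR of *Blm* was 0.0672 to 0.0945. The *Blm* call was also lost in DESeq2, in the limma test on TPM, with library size alone, and with the replicate number as a block. *Rad51c* and *Blm*, like *Parp2* and *Xrcc1* further on, are named because few members were called once, a choice made after their values were seen.

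Of the remaining recombination members, *Palb2*, which bridges BRCA1 and BRCA2, *Rad54l*, a DNA translocase, and *Xrcc2*, a factor of strand exchange, were not called at any time. Their log2 fold changes ranged from -0.063 for *Xrcc2* at Year 1 to 0.57 for *Rad54l* at Year 1, with FDRs from 0.136 to 0.856. *Rad54l* and *Xrcc2* overlap other gene entries in the annotation, by 18 and 11806 bases, and the counting is not stated to have used strand. *Xrcc3* and *Rmi2* were too low to test. *Xrcc3* had 3 to 12 reads per rat, and *Rmi2*, a subunit of the complex that dissolves recombination intermediates with BLM, had 0 to 4 reads in the 9 control rats and 2 to 14 in the 9 MWCNT-treated rats.

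**Figure D2:**
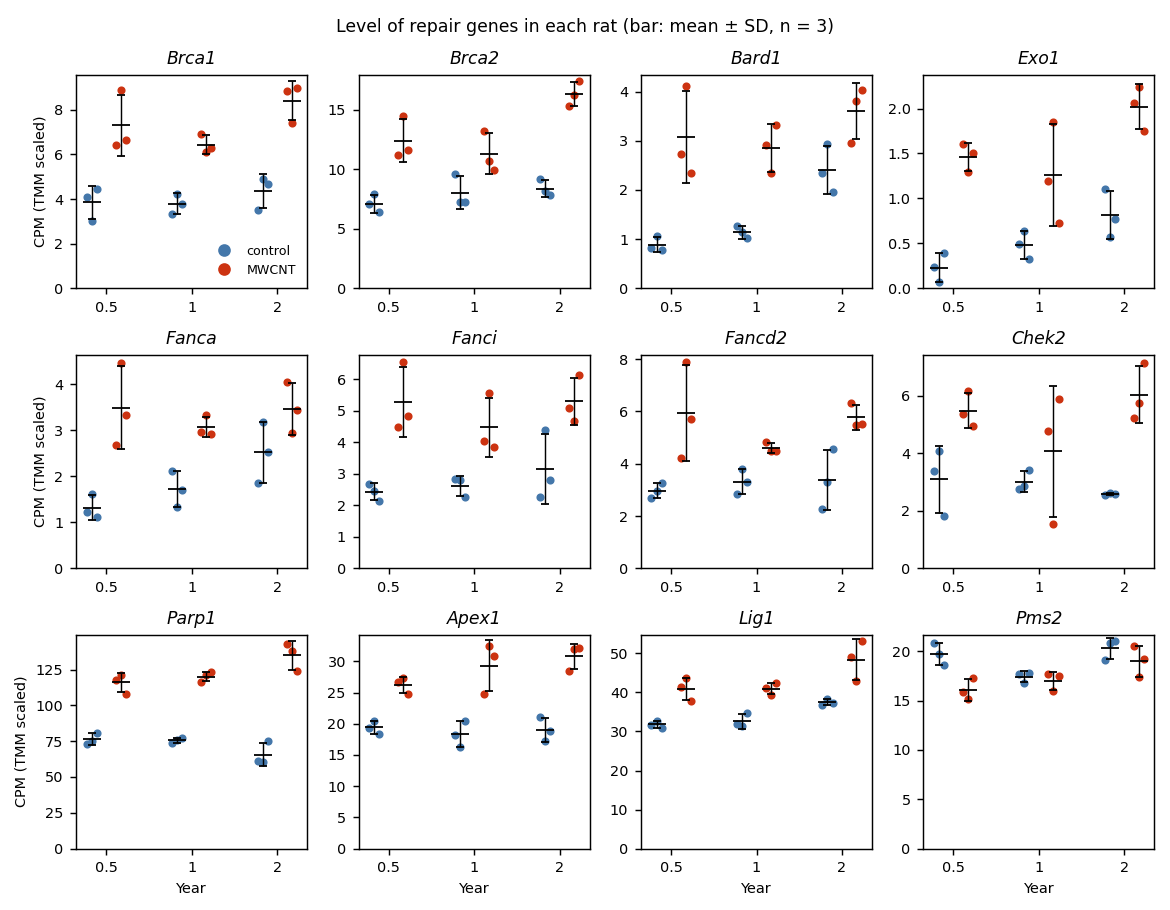
Level of 12 members in each rat in CPM (TMM scaled, linear axes from 0) at Year 0.5, 1, and 2, control rats in blue and MWCNT-treated rats in red, with the mean and SD of each group of 3 as black bars. Red points lie above blue ones at all 3 times for *Brca1*, *Brca2*, *Bard1*, *Exo1*, *Parp1*, *Apex1*, *Lig1*, *Fanci*, and *Fancd2*, and below them for *Pms2* at Year 0.5.

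The Fanconi anemia pathway had 5 members, all tested. Beside 20.2%, 21.6%, and 25.2% of all genes tested, 4 of them rose at Year 0.5, 2 at Year 1, and 2 at Year 2. Their median log2 fold change went from 1.01 at Year 0.5 to 0.48 and 0.53 at the later times, and no difference between the time points was called for any of them. *Fanca* (ENSRNOG00000016706, chr19:56067548-56126063) encodes a subunit of the core complex that attaches ubiquitin at the lesion. Control rats had 1.22, 1.62, and 1.11 CPM of *Fanca* at Year 0.5, and MWCNT-treated rats had 2.67, 4.47, and 3.32 CPM. Year 1 controls had 2.12, 1.33, and 1.71 CPM, compared with 2.97, 3.33, and 2.91 CPM in exposed rats. By Year 2, controls reached 1.86, 3.18, and 2.52 CPM and MWCNT-treated rats 4.05, 2.93, and 3.43 CPM. At Year 2 the groups overlapped, since control replicate 2, at 3.18 CPM, exceeded MWCNT-treated replicate 2. *Fanca* had log2 fold changes of 1.41 ± 0.29, 0.85 ± 0.25, and 0.45 ± 0.28 (SE) at the 3 times, with FDRs of 0.00512, 0.0262, and 0.207. Its entry overlaps *Zfp276* in the annotation by 34 bases. The Year 1 call of *Fanca* was lost without any 1 rat other than control replicate 1 (FDRs of 0.0511 to 0.0919).

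*Fancd2* (ENSRNOG00000061085, chr4:145489869-145551479) and *Fanci* (ENSRNOG00000016689, chr1:141120166-141172483) encode the pair of proteins that receives this ubiquitin. *Fancd2* at Year 0.5 measured 2.68, 2.96, and 3.26 CPM in controls and 4.21, 7.89, and 5.73 CPM after MWCNT. By Year 1, it was 2.83, 3.80, and 3.32 CPM in controls and 4.83, 4.50, and 4.50 CPM with MWCNT. Lungs of Year 2 showed 2.27, 3.31, and 4.55 CPM without MWCNT and 6.34, 5.48, and 5.52 CPM with it. The MWCNT-treated rats were the higher ones at every time, also at Year 1, where no call was made. Fitted *Fancd2* log2 fold changes were 1.01 ± 0.26, 0.48 ± 0.19, and 0.77 ± 0.26 (SE), in order of time, and their FDRs 0.0138, 0.0744, and 0.0363. Without control replicate 1 or MWCNT-treated replicate 2, the Year 0.5 FDR of *Fancd2* was 0.0561 to 0.0568, and the Year 2 call was lost without any 1 rat other than control replicate 3 (0.0657 to 0.107). Library size scaling, the limma test on TPM, and the replicate number as a block also ended the Year 2 call. For *Fanci*, the Year 0.5 controls were at 2.68, 2.46, and 2.15 CPM and the exposed rats at 4.48, 6.55, and 4.82 CPM. At Year 1, controls stood at 2.83, 2.79, and 2.25 CPM and MWCNT-treated rats at 4.03, 5.55, and 3.84 CPM. Values at Year 2 were 2.27, 4.39, and 2.80 CPM without and 5.09, 4.67, and 6.13 CPM with MWCNT. No control rat reached an MWCNT-treated rat at the same time, although control replicate 2 of Year 2, at 4.39 CPM, came near the lowest of them. In edgeR, the *Fanci* log2 fold changes came to 1.12 ± 0.23, 0.79 ± 0.23, and 0.74 ± 0.28 (SE), at FDRs of 0.00493, 0.0234, and 0.0511. The *Fanci* call at Year 1 was lost without control replicate 2 or 3 or MWCNT-treated replicate 2 (0.0544 to 0.0914).

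*Fancm*, the translocase that anchors the core complex on DNA, had smaller log2 fold changes than these 3 at Year 0.5 and Year 1. Control rats had 12.2, 11.5, and 11.4 CPM of *Fancm* at Year 0.5, and MWCNT-treated rats had 14.2, 17.6, and 15.6 CPM. The Year 1 levels were 11, 13.1, and 12.7 CPM in controls against 13.0, 12.5, and 13.7 CPM after MWCNT. Year 2 values were 8.60, 11.6, and 10.8 CPM for controls and 12.8, 17.7, and 14.4 CPM for MWCNT-treated rats. The groups were apart at Year 0.5 and Year 2 and overlapped at Year 1. On the log2 scale, *Fancm* differed by 0.44 ± 0.12, 0.097 ± 0.11, and 0.53 ± 0.17 (SE) from Year 0.5 to Year 2, with FDRs of 0.0169, 0.519, and 0.0248. The calls were lost without MWCNT-treated replicate 2 at Year 0.5 (FDR of 0.0715) and without control replicate 1 or MWCNT-treated replicate 2 at Year 2 (0.0755 to 0.0893), where scaling by library size also ended it. *Fancb*, another core complex subunit, was not called, with log2 fold changes of 0.295, -0.15, and 0.18 and overlapping groups at each time.

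Damage signalling kinases were called at the first and the last time. Beside 20.2% and 25.2% of all genes tested, 2 of the 3 kinases tested rose at Year 0.5 and 2 at Year 2 by edgeR's test. None was called at Year 1, where 0 of the 3 had an unadjusted p below 0.05 and DESeq2 called 0. *Chek2* (ENSRNOG00000037509, chr12:51845796-51877624), the checkpoint kinase downstream of ATM, was the DEG among them. *Chek2* at Year 0.5 measured 3.38, 4.08, and 1.82 CPM in controls and 5.35, 6.15, and 4.95 CPM after MWCNT. Year 1 controls had 2.76, 2.85, and 3.43 CPM, compared with 4.76, 1.54, and 5.89 CPM in exposed rats. By Year 2, controls reached 2.55, 2.61, and 2.59 CPM and MWCNT-treated rats 5.23, 5.73, and 7.14 CPM. The control rats of Year 2 lay close together and well below the MWCNT-treated rats, while at Year 1 MWCNT-treated replicate 2 was the lowest of the 6. *Chek2* had log2 fold changes of 0.83 ± 0.28, 0.43 ± 0.41, and 1.22 ± 0.21 (SE) at the 3 times, with FDRs of 0.0455, 0.426, and 0.00133. The Year 0.5 call of *Chek2* was lost without any 1 rat other than control replicate 2 (FDRs of 0.0637 to 0.136) and under scaling by library size or the upper quartile, and the Year 2 call held in all 6 fits without 1 rat. Without MWCNT-treated replicate 2, *Chek2* was called at Year 1 too.

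*Atm*, the kinase activated by double-strand breaks, rose by a small amount at Year 0.5 and Year 2. For *Atm*, the Year 0.5 controls were at 66.8, 63.7, and 56.6 CPM and the exposed rats at 75.6, 72.8, and 72.8 CPM. By Year 1, it was 63.8, 68.7, and 57.5 CPM in controls and 68.8, 57.9, and 66.0 CPM with MWCNT. Lungs of Year 2 showed 59.8, 64.5, and 75.3 CPM without MWCNT and 76.6, 84.5, and 79.5 CPM with it. The groups were separate at those times and intermixed at Year 1. Fitted *Atm* log2 fold changes were 0.24 ± 0.074, 0.029 ± 0.094, and 0.26 ± 0.091 (SE), in order of time, and their FDRs 0.0307, 0.823, and 0.0385. Both calls were lost under scaling by library size. At Year 0.5 it was lost without control replicate 2 or 3 or MWCNT-treated replicate 1 or 2 (FDRs of 0.0578 to 0.0888), and at Year 2 without any 1 rat other than control replicate 3 (0.0577 to 0.122). *Atr*, the kinase of single-stranded DNA and stalled forks, was not called, with log2 fold changes from -0.053 to 0.079 and overlapping groups at each time.

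Base excision and single-strand break repair was divided. Over all genes tested, 20.2%, 21.6%, and 25.2% rose and 18.6%, 19.6%, and 24% fell at the 3 times. Of the 10 tested members of this group, 4 rose and 1 fell at Year 0.5, 3 rose at Year 1, and 4 rose and 1 fell at Year 2. The median log2 fold change of these members stayed at 0.075, 0.24, and 0.11. The genes that rose were a break sensor, an endonuclease, a uracil glycosylase, and a ligase, whereas no glycosylase for oxidized bases was called in the edgeR fit defined above. *Nthl1* was called lower in some of the alternative fits, which are given below.

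*Parp1* (ENSRNOG00000003084, chr13:98857177-98889716) encodes the poly(ADP-ribose) polymerase that senses strand breaks. Control rats had 72.7, 75.3, and 81.0 CPM of *Parp1* at Year 0.5, and MWCNT-treated rats had 118, 121, and 108 CPM. At Year 1, controls stood at 73.6, 76.1, and 77.1 CPM and MWCNT-treated rats at 116, 121, and 123 CPM. Values at Year 2 were 61.2, 60.4, and 74.8 CPM without and 143, 138, and 124 CPM with MWCNT. The lowest MWCNT-treated rat, at 108 CPM, was above the highest control rat, at 81.0 CPM, over all time points. In edgeR, the *Parp1* log2 fold changes came to 0.60 ± 0.070, 0.67 ± 0.066, and 1.04 ± 0.098 (SE), at FDRs of 0.000278, 0.000101, and 3.37e-05. The fold change was 1.52, 1.59, and 2.06 at the 3 times, and the *Parp1* calls held in every refit, including library size scaling, where the highest FDR was 0.00191 at Year 0.5, 0.00253 at Year 1, and 0.000626 at Year 2 over the alternative settings.

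*Apex1*, the endonuclease that cuts at sites where a base has been lost, rose at each time. *Apex1* at Year 0.5 measured 19.3, 20.4, and 18.4 CPM in controls and 26.7, 27.3, and 24.7 CPM after MWCNT. The Year 1 levels were 18.2, 16.2, and 20.4 CPM in controls against 24.7, 32.4, and 30.8 CPM after MWCNT. Year 2 values were 21.0, 17.2, and 18.8 CPM for controls and 28.5, 31.9, and 32.1 CPM for MWCNT-treated rats. None of the groups overlapped. On the log2 scale, *Apex1* differed by 0.44 ± 0.086, 0.69 ± 0.13, and 0.69 ± 0.10 (SE) from Year 0.5 to Year 2, with FDRs of 0.00375, 0.00329, and 0.000527. *Lig1*, the ligase that seals nicks in replication and long-patch base excision repair, also rose at each time. For *Lig1*, the Year 0.5 controls were at 31.6, 32.7, and 31.0 CPM and the exposed rats at 41.3, 43.6, and 37.8 CPM. Year 1 controls had 31.9, 31.3, and 34.7 CPM, compared with 41.1, 39.4, and 42.4 CPM in exposed rats. By Year 2, controls reached 36.8, 38.3, and 37.4 CPM and MWCNT-treated rats 49.0, 42.9, and 53.3 CPM. The separation was clear but narrow in proportion to the level. *Lig1* had log2 fold changes of 0.36 ± 0.078, 0.33 ± 0.081, and 0.36 ± 0.091 (SE) at the 3 times, with FDRs of 0.00594, 0.0105, and 0.00956. With library size alone, the *Lig1* calls at Year 1 and Year 2 were lost, with FDRs of 0.0765 and 0.106.

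*Ung*, the glycosylase that removes uracil, rose at Year 0.5 and Year 2. Control rats had 8.22, 9.01, and 9.70 CPM of *Ung* at Year 0.5, and MWCNT-treated rats had 11.4, 14.1, and 13.0 CPM. By Year 1, it was 11.1, 9.63, and 12.6 CPM in controls and 13.5, 15.2, and 13.6 CPM with MWCNT. Lungs of Year 2 showed 11.7, 8.71, and 10.8 CPM without MWCNT and 13.2, 16.5, and 15.5 CPM with it. MWCNT-treated rats were above control rats at all 3 times. Fitted *Ung* log2 fold changes were 0.52 ± 0.13, 0.35 ± 0.13, and 0.53 ± 0.15 (SE), in order of time, and their FDRs 0.0147, 0.0597, and 0.0169. The *Ung* calls were lost without control replicate 1 or MWCNT-treated replicate 2 at Year 0.5 (FDRs of 0.0570 to 0.0575) and without control replicate 2 or MWCNT-treated replicate 2 at Year 2 (0.0545 to 0.0591). Library size scaling and the limma test on TPM also ended the Year 2 call of *Ung*. *Parp2*, a relative of *Parp1*, fell at Year 0.5, from 23.5, 23.1, and 21.7 CPM in the control rats to 18.5, 19.4, and 19.2 CPM. The *Parp2* log2 fold change at Year 0.5 was -0.26 ± 0.083 (SE, FDR = 0.035). That call was absent in DESeq2 and lost without any 1 rat other than control replicate 3 (0.0756 to 0.109). *Xrcc1* fell at Year 2, from 70.9, 71.5, and 64.4 CPM to 52.3, 60.7, and 59.5 CPM. The *Xrcc1* log2 fold change at Year 2 was -0.27 ± 0.081 (SE, FDR = 0.0227). Without control replicate 1 or 2 or MWCNT-treated replicate 1, the FDR of *Xrcc1* was 0.0584 to 0.0863. The polymerase genes *Parp1* and *Parp2* thus moved in opposite directions at Year 0.5.

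The glycosylases of oxidized bases, whose substrates include 8-oxoguanine, were measured with fewer reads than *Parp1* and were not called in the edgeR fit defined above. *Ogg1*, which removes 8-oxoguanine, had log2 fold changes of -0.057, 0.28, and 0.053 with FDRs of 0.793, 0.244, and 0.801. *Mutyh*, which removes adenine paired with 8-oxoguanine, had -0.19, -0.12, and -0.29, and *Neil1* had 0.21, 0.21, and 0.16, with overlapping groups at each time for both. *Nthl1*, which removes oxidized pyrimidines and carries E2F letters in the promoter shown, came closest to a call. *Nthl1* at Year 0.5 measured 10.7, 9.86, and 8.33 CPM in controls and 8.29, 7.54, and 7.81 CPM after MWCNT. At Year 1, controls stood at 12.5, 8.68, and 8.40 CPM and MWCNT-treated rats at 7.67, 6.53, and 6.29 CPM. Values at Year 2 were 13.0, 12.4, and 9.79 CPM without and 7.89, 10, and 8.62 CPM with MWCNT. The MWCNT-treated rats were the lower ones at Year 0.5 and Year 1, and the groups overlapped at Year 2. *Nthl1* had log2 fold changes of -0.29 ± 0.15, -0.52 ± 0.19, and -0.41 ± 0.16 (SE) at the 3 times, with FDRs of 0.148, 0.0517, and 0.0597. At Year 1, *Nthl1* was called lower in DESeq2 (FDR = 0.0448), in the limma test on TPM (0.00948), and in edgeR with library size or upper quartile scaling, at least 10 counts in every rat, the model of all 18 rats, or the replicate block (0.0168 to 0.0493), but in none of the 6 fits without 1 rat (0.0531 to 0.155). Calls were also made at Year 2 in 4 of these settings and at Year 0.5 in the limma test. *Ogg1* overlaps *Camk1* in the annotation by 331 bases. *Neil3* had 0 to 4 reads in the 9 control rats and 0 to 13 in the 9 MWCNT-treated rats and was not tested.

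In mismatch repair, *Pms2*, an endonuclease subunit, fell at Year 0.5. For *Pms2*, the Year 0.5 controls were at 20.8, 19.7, and 18.6 CPM and the exposed rats at 15.9, 15.2, and 17.3 CPM. The Year 1 levels were 17.7, 16.8, and 17.8 CPM in controls against 17.7, 16.0, and 17.5 CPM after MWCNT. Year 2 values were 19.1, 20.8, and 21.0 CPM for controls and 20.5, 17.4, and 19.2 CPM for MWCNT-treated rats. The groups were separate at Year 0.5, with the MWCNT-treated rats lower, and overlapped later. Fitted *Pms2* log2 fold changes were -0.29 ± 0.097, -0.025 ± 0.095, and -0.100 ± 0.10 (SE), in order of time, and their FDRs 0.0428, 0.852, and 0.451. The *Pms2* call was lost in DESeq2 and without control replicate 1 or 2 or MWCNT-treated replicate 1 or 2 (FDRs of 0.0862 to 0.164). *Msh6*, a subunit that recognizes mismatches, ranged from 32.1 to 42.0 CPM over the 18 rats, with log2 fold changes of 0.088, 0.066, and 0.083 and FDRs of 0.449 to 0.555.

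No member of nucleotide excision repair was called at any time by edgeR with TMM scaling or by DESeq2, and 1 had an unadjusted p below 0.05, *Ercc2* at Year 2. *Ercc2*, a helicase of TFIIH, is the member of this group with the lowest FDR. Control rats had 35.5, 33.6, and 34.6 CPM of *Ercc2* at Year 0.5, and MWCNT-treated rats had 29.3, 31.2, and 34.6 CPM. Year 1 controls had 33.1, 33.4, and 36.1 CPM, compared with 34.8, 25.9, and 33.5 CPM in exposed rats. By Year 2, controls reached 38.4, 40.3, and 39.9 CPM and MWCNT-treated rats 35.0, 34.7, and 35.2 CPM. At Year 2 the MWCNT-treated rats were all below the control rats, and the groups overlapped at the other times. In edgeR, the *Ercc2* log2 fold changes came to -0.13 ± 0.083, -0.12 ± 0.12, and -0.18 ± 0.071 (SE), at FDRs of 0.254, 0.443, and 0.0589. *Ercc2* was called lower at Year 2 with library size (FDR = 0.00324) or upper quartile scaling (0.021) and in the limma test on TPM (0.00711), which called it at Year 0.5 too (0.0498). *Xpc*, which recognizes distorted DNA, had log2 fold changes from 0.053 to 0.14, *Ercc1* from -0.23 to 0.038, and *Xpa*, which verifies the damage, from -0.28 to 0.12, with FDRs of 0.122 or more. *Xpa*, *Ercc1*, and *Ercc2* overlap other gene entries, by 16715, 474, and 1243 bases.

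Translesion synthesis was represented by *Polh*, the polymerase that copies past ultraviolet photoproducts. *Polh* at Year 0.5 measured 11.1, 11.8, and 10.6 CPM in controls and 11.7, 11.5, and 10.7 CPM after MWCNT. By Year 1, it was 12.4, 12.9, and 12.3 CPM in controls and 13.2, 10.8, and 12.6 CPM with MWCNT. Lungs of Year 2 showed 11.4, 11.4, and 12.1 CPM without MWCNT and 11.7, 12.5, and 14.1 CPM with it. The groups overlapped at each time. On the log2 scale, *Polh* differed by 0.017 ± 0.12, -0.033 ± 0.12, and 0.13 ± 0.12 (SE) from Year 0.5 to Year 2, with FDRs of 0.921, 0.834, and 0.427. In non-homologous end joining, *Prkdc*, the catalytic subunit of the DNA-dependent protein kinase, rose at Year 0.5 and Year 2. For *Prkdc*, the Year 0.5 controls were at 53.2, 49.3, and 50.7 CPM and the exposed rats at 55.1, 63.5, and 63.2 CPM. At Year 1, controls stood at 50.8, 60.6, and 63.8 CPM and MWCNT-treated rats at 59.9, 44.4, and 54.9 CPM. Values at Year 2 were 45.4, 56.0, and 57.3 CPM without and 63.6, 66.3, and 65.5 CPM with MWCNT. The groups were apart at Year 0.5 and Year 2, and at Year 1 MWCNT-treated replicate 2 was the lowest of the 6 rats. *Prkdc* had log2 fold changes of 0.25 ± 0.077, -0.13 ± 0.12, and 0.29 ± 0.094 (SE) at the 3 times, with FDRs of 0.0319, 0.417, and 0.0276. Scaling by library size ended both *Prkdc* calls. At Year 0.5 it was also lost without any 1 rat other than MWCNT-treated replicate 1 (FDRs of 0.0523 to 0.0969), and at Year 2 without any 1 MWCNT-treated rat (0.0566 to 0.0740). *Lig4*, the ligase of end joining, was not called, with log2 fold changes of 0.11, 0.084, and 0.30 and an FDR of 0.0621 at Year 2.

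**Figure D3:**
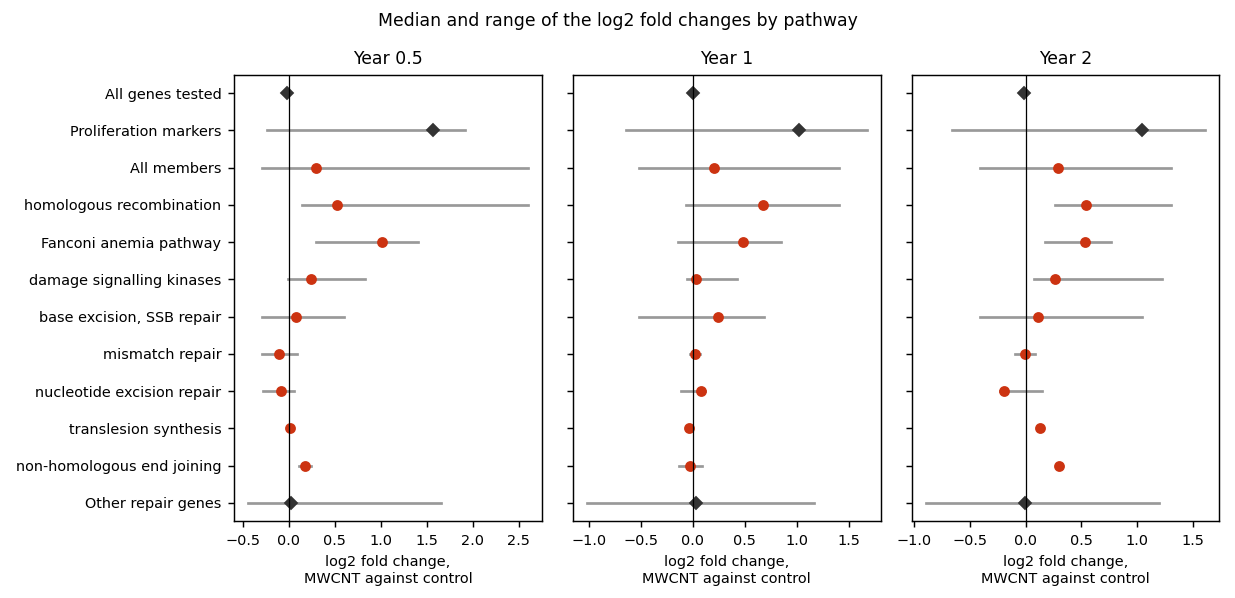
Median (points) and range (lines) of the log2 fold changes, MWCNT against control, of each repair group in 1 panel per time point, with all members in red and, as black diamonds, all genes tested (median only), 16 proliferation markers, and the other repair genes. The medians of homologous recombination were 0.53, 0.67, and 0.54, those of the other repair genes lay near 0, and those of the proliferation markers were 1.57, 1.02, and 1.04.

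Stability differed between the members. Of the 43 calls of members over the 3 time points, 20 were made in every fit that left out 1 of the 6 rats. Calls made in all of these fits and under all 8 alternative settings were those of *Brca1*, *Brca2*, *Bard1*, *Exo1*, *Fanca*, *Fanci*, *Parp1*, and *Apex1* at Year 0.5, of *Bard1*, *Parp1*, and *Apex1* at Year 1, and of *Brca1*, *Brca2*, *Chek2*, *Parp1*, and *Apex1* at Year 2.

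A further 92 repair genes that are not members were read from the same fits, 3 of them of direct reversal and the others of the same pathways as the members. At Year 0.5, 12 of 87 tested were called, all of them higher (4 were lower at an unadjusted p below 0.05, and DESeq2 called 10 higher). At Year 1, 9 were higher and 6 lower of 86, and at Year 2 11 were higher and 9 lower of 86. Over all genes tested, larger shares were called, 38.8%, 41.2%, and 49.2% at the 3 times. Of all genes, 20.2%, 21.6%, and 25.2% were higher and 18.6%, 19.6%, and 24% lower. Their median log2 fold change was 0.021, 0.030, and -0.0057. The counts of genes called were sensitive to single rats, falling from 12 to 4 without MWCNT-treated replicate 2, to 5 without control replicate 1, and to 6 without MWCNT-treated replicate 1 at Year 0.5. At Year 1 they fell from 15 to 5 without control replicate 3, to 6 without control replicate 2, and to 9 without MWCNT-treated replicate 1 or 3, and at Year 2 from 20 to 12 without MWCNT-treated replicate 1 and to 13 without MWCNT-treated replicate 3. In the damage signalling list of 14 genes, 2 were higher and 0 lower at Year 0.5, 1 higher and 5 lower at Year 1, and 1 higher and 4 lower at Year 2. In the recombination list, 3 of 15, 2 of 14, and 2 of 14 were higher and 1 was lower, at Year 2. These recombination counts were not above the shares of all genes. Both lists were picked from several, and a contrast between them was not tested.

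DEGs among these genes were few. *Gen1*, a resolvase of Holliday junctions, had log2 fold changes of 0.96, 0.97, and 1.09 (FDRs of 0.0184, 0.0342, and 0.0253), and its calls depended on single rats. *Primpol*, a primase that restarts stalled forks, had 0.76, 0.31, and 1.08 (0.0110, 0.287, and 0.00734). *Eme1*, a partner of the MUS81 nuclease, was tested at Year 0.5 alone, with 1.31 ± 0.39 (SE, FDR = 0.0272), and this call was lost without any 1 rat. *Clspn*, the mediator between ATR and the checkpoint kinase that was not found, went the other way, with log2 fold changes of -0.17, -1.02, and -0.90 (0.555, 0.000910, and 0.00103).

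Markers of cycling cells were also higher in the MWCNT-treated rats. Over all genes tested, 20.2%, 21.6%, and 25.2% were higher and 18.6%, 19.6%, and 24% lower at the 3 times. Of 16 proliferation markers, all detected, 14 were higher at each of the 3 times, and 1, *Aurkb*, a mitotic kinase, was lower at Year 1 and at Year 2. Their summed level was 220 to 288 CPM in the control rats and 368 to 429 CPM in the MWCNT-treated rats at Year 0.5, 268 to 301 against 341 to 380 CPM at Year 1, and 293 to 311 against 382 to 394 CPM at Year 2. *Mki67*, a marker of cells outside resting phase, had log2 fold changes of 1.59 ± 0.12, 0.76 ± 0.11, and 1.02 ± 0.17 (SE), and *Top2a*, the topoisomerase of dividing cells, had 1.58 ± 0.12, 1.06 ± 0.12, and 1.16 ± 0.12. The part of cycling cells in the levels of the repair genes was not tested.

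Cell type markers moved as well, and their counts stand beside the same shares of all genes, 20.2%, 21.6%, and 25.2% higher and 18.6%, 19.6%, and 24% lower. Macrophage markers were higher for 10, 9, and 10 of 10 genes at the 3 times, with sums of 14500 to 17700 CPM in control and 35500 to 46000 CPM in MWCNT-treated rats. Alveolar type 2 cell markers, the surfactant genes among them, were higher for 7, 6, and 7 of 7 genes, and endothelial markers were lower for 5 of 5 genes at each time. Among T cell markers 1, 1, and 1 of 6 were higher and 3, 1, and 5 lower, among B and plasma cell markers 2, 2, and 1 of 6 higher and 4, 1, and 2 lower, and among neutrophil markers 1, 2, and 2 of 5 higher. The sum of the 6 T cell markers was nevertheless higher with MWCNT, at 104 to 129 CPM in control and 135 to 165 CPM in MWCNT-treated rats at Year 0.5, 125 to 138 against 147 to 218 CPM at Year 1, and 146 to 167 against 214 to 250 CPM at Year 2. At each time 1 of the 6 had a positive log2 fold change (1.17, 1.18, and 1.81), and the list median was -0.485, -0.605, and -1.36. The higher sum was thus that of 1 marker and not of the list. Heart muscle markers were lower for 6, 2, and 1 of 7, 7, and 6 genes tested, and their sum varied from 12.9 to 644 CPM over the rats. Whether these shifts in makeup set the levels of any repair gene was not tested.

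The 6 groups were also compared over time, in 1 edgeR model of all 18 rats, which asks whether the response changed from one time point to another and whether members differed between time points within an arm. In control rats, age, the number of vehicle instillations, and the time of collection changed together and cannot be told apart. For the difference between the treatment effects of 2 time points, 0 members were called in edgeR (1, 3, and 5 at an unadjusted p below 0.05 for Year 1 against 0.5, Year 2 against 0.5, and Year 2 against 1), beside calls of 0%, 1.31%, and 0.478% and unadjusted p below 0.05 for 8.49%, 13.8%, and 16.5% of all 14843 genes. The *Parp1* response was larger at Year 2 than at Year 0.5 by 0.44 ± 0.11 on the log2 scale (SE, FDR = 0.0607) and larger than at Year 1 by 0.38 ± 0.11 (FDR = 0.109), and neither difference was called in edgeR. DESeq2 called both *Parp1* differences, with FDRs of 0.0184 and 0.0496. In edgeR both were called without control replicate 3 of Year 2 (0.0134 and 0.0221), the control rat with the highest *Parp1* value at that time, and the first also without MWCNT-treated replicate 3 of Year 2 (0.0446). From Year 0.5 to Year 2, *Parp1* itself differed by -0.22 ± 0.080 (SE, FDR = 0.103) in control rats. In MWCNT-treated rats it differed by 0.22 ± 0.078 (FDR = 0.0707), and neither was called in the fit of all 18 rats. For *Bard1*, the response was smaller at Year 2 than at Year 0.5 by a log2 difference of -1.22 ± 0.37, which was not called (FDR = 0.127). A weaker *Bard1* response at Year 2 is therefore not shown by the test of the difference.

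In control rats, *Bard1* was higher at Year 2 than at Year 0.5 by a log2 difference of 1.44 ± 0.28 (SE, FDR = 0.00797), and higher than at Year 1 by 1.08 ± 0.27 (FDR = 0.0259). *Exo1* was higher in the control rats of Year 2 than of Year 0.5 by 1.76 ± 0.51 (FDR = 0.0473), and *Fanca* by 0.94 ± 0.28, which missed the threshold in edgeR (FDR = 0.0504) and passed it in DESeq2 (0.0397), with library size alone (0.0417), and without MWCNT-treated replicate 1 or 2 of Year 0.5 or replicate 2 of Year 1 (0.0477 to 0.0496). These 2 calls compare with 6.65% of all genes for Year 2 against 0.5, and the single call for Year 2 against 1 with 7.93%. The *Exo1* call was kept, among the fits that left out 1 of the 18 rats, only without MWCNT-treated replicate 2 or 3 of Year 1. The *Bard1* call for Year 2 against 0.5 held in all 18, and that for Year 2 against 1 was lost without control replicate 2 or 3 of Year 1 or control replicate 1 or 2 of Year 2.

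In MWCNT-treated rats, *Lig1* was higher at Year 2 than at Year 0.5 by a log2 difference of 0.24 ± 0.079 (SE, FDR = 0.0496), against 13.5% of all genes. Higher at Year 2 than at Year 1 were *Brca2*, by 0.53 ± 0.14 (FDR = 0.0369), and *Atm*, by 0.32 ± 0.092 (FDR = 0.0476), against 5.94% of all genes. The *Lig1* and *Atm* values sat at the threshold, and both were lost with library size as the scaling (0.0762 and 0.0672). Leaving out 1 rat kept the *Lig1* call only for MWCNT-treated replicate 2 of any year, and the *Atm* call only for control replicate 3 of Year 0.5, 2 or 3 of Year 1, or 1 or 3 of Year 2. The *Brca2* call was lost without MWCNT-treated replicate 2 or 3 of Year 1 or any 1 MWCNT-treated rat of Year 2. For Year 1 against Year 0.5, no member was called in control or in MWCNT-treated rats by edgeR or DESeq2, 2 in each having an unadjusted p below 0.05, beside calls of 0% and 0.101% and unadjusted p below 0.05 for 7.01% and 9.24% of all genes. The time comparisons share rats with each other and with the treatment comparisons, so their values are not independent of one another.

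**Figure D4:**
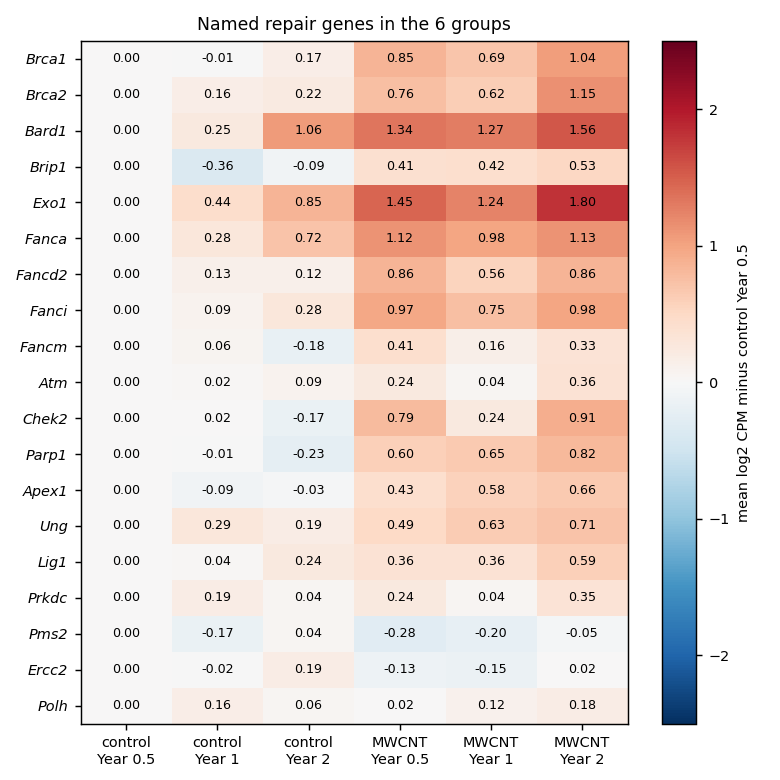
Mean log2(CPM + 0.5) of 19 members in each of the 6 groups (3 rats a group), as colour and number. The mean of the control rats at Year 0.5 was subtracted. The added 0.5 makes differences of genes with low CPM smaller than the fitted ones. For control rats, Year 2 against 0.5, the fitted log2 differences were 1.44 for *Bard1* and 1.76 for *Exo1*. *Brca1*, *Brca2*, *Parp1*, and *Apex1* lie between -0.225 and 0.224 in the control groups and at 0.429 or more in every MWCNT group, while *Bard1* and *Exo1* reach 1.06 and 0.849 in the control rats of Year 2.

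Summed over pathways, levels in CPM were higher with MWCNT for recombination and base excision and similar for nucleotide excision repair. These sums are descriptions, without a test. The 12 recombination genes summed to 33.4 ± 0.657, 34.1 ± 3.70, and 38.2 ± 2.23 CPM in control rats, in order of time (mean ± SD, n = 3), and to 52.3 ± 5.41, 48.8 ± 3.48, and 59.4 ± 4.47 CPM in MWCNT-treated rats. The 5 Fanconi genes summed to 20.9 ± 0.943, 22.5 ± 0.477, and 21.9 ± 4.05 CPM without and 33.6 ± 5.72, 27.5 ± 0.154, and 32.4 ± 0.909 CPM with MWCNT. The 11 base excision genes summed to 256 ± 7.04, 256 ± 7.05, and 266 ± 5.44 CPM in control rats and 301 ± 5.52, 315 ± 6.60, and 348 ± 5.56 CPM in MWCNT-treated rats. Most of that difference at Year 2 was *Parp1*, whose mean was 65.5 CPM in control and 135 CPM in MWCNT-treated rats. Nucleotide excision repair, by contrast, summed to 122 ± 4.80 and 120 ± 7.86 CPM at Year 0.5, 118 ± 5.49 and 120 ± 5.04 CPM at Year 1, and 130 ± 1.48 and 128 ± 7.70 CPM at Year 2, in control and MWCNT-treated rats, differences smaller than the SDs of the MWCNT groups. The picture depended on the scale. TPM is scaled to the same total in each library, without TMM factors. In the limma test on TPM, the median log2 fold change of all genes was -0.149, -0.212, and -0.2 at the 3 times, so genes in general were lower on that scale. In TPM, the sums for base excision differed less between control and MWCNT-treated rats, at 236 ± 5.52 and 238 ± 3.21 at Year 0.5, 239 ± 5.98 and 240 ± 11.6 at Year 1, and 251 ± 1.75 and 259 ± 13.7 at Year 2. Nucleotide excision repair was lower with MWCNT in TPM, by more than the SDs, at 103 ± 5.15 and 90.0 ± 7.03, 99.8 ± 6.82 and 87.5 ± 4.78, and 110 ± 2.37 and 89.3 ± 7.94. Mismatch repair was lower in TPM too, at 30.8 ± 0.768 and 26.6 ± 2.72, 29.7 ± 1.53 and 25.8 ± 2.40, and 30.0 ± 1.87 and 25.8 ± 1.39. Recombination was higher on that scale as well, at 16.5 ± 0.164 and 23.3 ± 2.27, 16.7 ± 1.61 and 22.9 ± 2.24, and 19.5 ± 1.13 and 24.0 ± 1.5. The Fanconi genes summed to 8.61 ± 0.469 and 12.8 ± 2.13, 9.41 ± 0.119 and 10 ± 0.438, and 9.32 ± 1.99 and 11.7 ± 0.152 TPM, a small difference at Year 1.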

How the data were processed

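RNA was measured by RNA-seq in 18 rat lungs, 3 rats in each of 6 groups. The authors mapped the reads and made the deposited tables in CLC Genomics Workbench 22.0.2, with Rnor_6.0 (rn6) named in the submitters' processing notes. The strand setting and the handling of reads with several matches are not given in the sources used here. The deposited tables hold the authors' counts of reads per gene, not normalized, and the authors' TPM values, together with 36 further columns of per-rat values (RPKM and CPM) that were not used. The authors' own comparison columns, which hold fold changes and p-values of their tests, were left out.

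The counts were tested with edgeR 4.0.16 in R 4.3.3 (filterByExpr at its minimum count of 10 and total of 15, TMM scaling, quasi-likelihood test, Benjamini-Hochberg adjustment over all genes tested), for the 6 rats of each time point, and in 1 model of all 18 rats for time and for treatment by time. A call was an FDR below 0.05. TPM served to compare levels between genes, and TMM-scaled CPM within a gene. Alternatives were no filter, at least 10 counts in every rat, library size alone, upper quartile scaling, DESeq2 1.42.0, limma 3.58.1 on log2(TPM + 1), the 18-rat model, the replicate number as a block, and leaving out each rat. The scripts were tested on simulated data, and figures were drawn with matplotlib 3.10.9 in Python 3.11.15. The rats were separate animals, and totals of 13297643 to 21130757 counts left the lowest members at a few reads. The list of members, the list of other repair genes, and the marker lists were chosen with earlier results of these data known. Genes given in full were members that were DEGs or were called in the same direction at 2 or more time points, otherwise the member of a pathway with the lowest FDR, and, outside the members, other repair genes that were DEGs (some are not reported here), *Mki67*, and *Top2a*. *Nthl1* and the members called once were added after their values were seen. Promoter sequences are from RefSeq (GRCr8), matched by symbol.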

Additional observations from a re-analysis of the deposited data

How the results depend on the processing

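Of 724 fold changes of single genes recomputed under 8 alternative settings, 621 kept their direction and their side of the threshold, 66 lost a call, 27 gained one, and 10 changed sign. The changes of sign were in small, uncalled values. With library size alone, *Polh* had log2 fold changes of -0.087 at Year 0.5 and -0.0437 at Year 2, and at Year 1 *Fancm* had -0.0373 and *Atm* -0.105. Upper quartile scaling gave -0.0242 for *Polh* at Year 0.5 and -0.00795 for *Atm* at Year 1. The limma test on TPM gave -0.111 and -0.0818 for *Polh* at Year 0.5 and Year 2, and -0.106 for *Fancm* and -0.188 for *Atm* at Year 1. Without 1 rat, values ranged from -0.0197 to 0.0665 for *Polh* at Year 0.5 and from -0.0951 to 0.0372 at Year 1, from -0.0361 to 0.0917 for *Atm* and -0.0569 to 0.0131 for *Pms2* at Year 1, and from -0.128 to 0.0822 for *Parp2* at Year 2.

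Members that were DEGs numbered 0 at each time in the limma test on TPM, and at Year 1 they numbered 1 with at least 10 counts in every rat, with library size alone, or in DESeq2. The limma test adds 1 to each TPM, which by itself shrinks the log2 fold changes of genes at a few TPM or less. *Exo1* at Year 0.5, for example, had a mean of 0.191 TPM in control and 1.09 TPM in MWCNT-treated rats. The DEG count of that test is therefore not directly comparable with that of edgeR. TPM also lacks the TMM factors, and *Parp1*, a DEG at Year 2 in edgeR, stood at 38.6 TPM in control rats. The part of the added 1 in the lower DEG count was not tested. The limma test called 7 members and 28 other repair genes at Year 1, and library size scaling called 31 other repair genes at Year 2. For Year 2 against 0.5 in control rats, 1 member was called without a filter and 4 with library size alone, and in MWCNT-treated rats 0 in both and in DESeq2. For Year 2 against 1, DESeq2 called 0 in control rats, and in MWCNT-treated rats 0 were called without a filter and 1 with library size alone. DESeq2 called 1 member, *Parp1*, for each treatment by time difference with Year 2. The cause of these shifts was not tested.

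Leaving out 1 rat gave 9 to 15 members called at Year 0.5, 6 to 11 at Year 1, and 9 to 15 at Year 2, with 3 to 6, 1 to 5, and 2 to 4 DEGs. Other repair genes numbered 4 to 13, 5 to 17, and 12 to 20. Time effects ranged from 1 to 3 and 0 to 2 calls in control rats and from 0 to 2 in MWCNT-treated rats, and treatment by time from 0 to 1.

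Replicate numbers did not pair the rats. The mean correlation of deviations from the group means was 0.0105 over the 9 pairs with the same number (-0.174 to 0.121) and -0.00487 over the 18 others. With the replicate number as a block, the members called were 14 higher at Year 0.5, 11 higher and 1 lower at Year 1, and 11 higher and 1 lower at Year 2, other repair genes numbered 13 at Year 2, and for Year 2 against 0.5 the block left 1 member called in control rats and 0 in MWCNT-treated rats, and for Year 2 against 1 it left 1 in MWCNT-treated rats. Genes with few reads, such as *Exo1*, *Rmi2*, and *Neil3*, are limited by depth.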
